A study of Mus musculus with 6 samples.

Results

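The respiratory complexes II to V are described here by the genes in the nucleus that encode their parts, in bone marrow neutrophils of mice labelled WT and LRP5-null. The genes were taken by symbol from the deposited expression table: Sdha to Sdhd for complex II, symbols beginning with Uqcr and Cyc1 for complex III, those beginning with Cox4 to Cox8 for complex IV, those beginning with Atp5 for complex V, and Cycs, the carrier between complexes III and IV. This gave 55 of the 52636 genes listed, with 4 in complex II, 11 in complex III, 18 in complex IV and 21 in complex V. By their names, 45 of them are subunits, 6 are pseudogenes and 3 are related factors that are no part of the finished enzyme.

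Complex II, succinate dehydrogenase, feeds electrons from succinate of the citric acid cycle into the ubiquinone pool of the inner mitochondrial membrane. Complex III passes them on to cytochrome c, complex IV, cytochrome c oxidase, gives them to oxygen, and complexes III and IV pump protons as they do so. Complex V, ATP synthase, lets the protons flow back through a rotor and makes ATP. Mature neutrophils are known to rely mainly on glycolysis and to hold few mitochondria, whereas their precursors in the marrow hold more.

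RNA was measured in 6 libraries, 3 per group, all from bone marrow of C57BL/6N mice aged 10 weeks. Mice labelled LRP5-null had the genotype LRP5f/f with Lyz2Cre, that is, floxed alleles of Lrp5 and a Cre recombinase driven from the lysozyme gene Lyz2, which is active in the whole myeloid lineage and not in neutrophils alone. For the WT mice the labels name no allele. The labels do not say which animals gave which library, so the p-values measure the spread between these libraries, which may be technical. Values are TPM, a unit in which the authors had divided reads by transcript length and scaled each library to the same total, so that levels can be compared between genes. The depth behind each value is unknown, because TPM does not keep it.

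The libraries held 249841492 to 340580330 reads. The 10 marker genes of neutrophils (11 entries, as Itgam has more than 1) made up 375489 to 421116 TPM of each library, led by S100a8 and S100a9. The targeted gene, Lrp5, was at 1.12, 1.31 and 1.42 TPM in WT replicates 1 to 3 and at 1.68, 1.77 and 2.07 TPM in LRP5-null replicates 1 to 3. It was thus not lower where the label says it was deleted, with a log2 fold change of 0.31 ± 0.0942 (SE, limma adjusted p = 0.136), and the libraries labelled LRP5-null are called so here by their label. Which exons were floxed is not given in the sources used here, and a level over the whole gene need not be lower where only some exons are removed. Lyz2, the gene that drives Cre and was lower in every library labelled as carrying it, was 25963 ± 1039 TPM in WT (SD, n = 3) and 13792 ± 375 TPM in LRP5-null libraries (SD, n = 3), a log2 fold change of −0.91 ± 0.0550 (SE, limma adjusted p = 0.00351). Ribosomal RNA took 1.20% and 1.30% of reads in WT replicates 1 and 2, and 2.69% to 3.30% in the other libraries.

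Averaged over all 6 libraries, 42 of the 55 genes reached 1 TPM and were tested, namely all of complex II, 9 genes of complex III, 12 of complex IV, 16 of complex V and Cycs. Their mean levels ranged from 1.35 TPM for Cox6b2 to 330 TPM for Atp5l, with a median of 93.3 TPM against 11.8 TPM for all genes tested. The highest means belonged to Atp5l and Atp5h of complex V and Cox8a of complex IV. Within complex V the levels of subunit genes of the same enzyme differed by far more than the spread between libraries. They ran from Atp5g1 at 4.63 ± 2.52 TPM in WT (SD, n = 3) to Atp5l at 298 ± 14.3 TPM in WT (SD, n = 3). Atp5g1 is 1 of 3 genes that encode the same c subunit. The lowest gene that encodes a subunit alone was Atp5d, at 42.9 ± 10.0 TPM in WT (SD, n = 3). The 13 genes not tested were the 6 pseudogenes, the related factor Atp5s and 6 subunit isoforms of complex IV described further on. Processed pseudogenes with symbols of another kind could also have shared reads with these short transcripts in the authors' quantification.

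**Figure D1:**
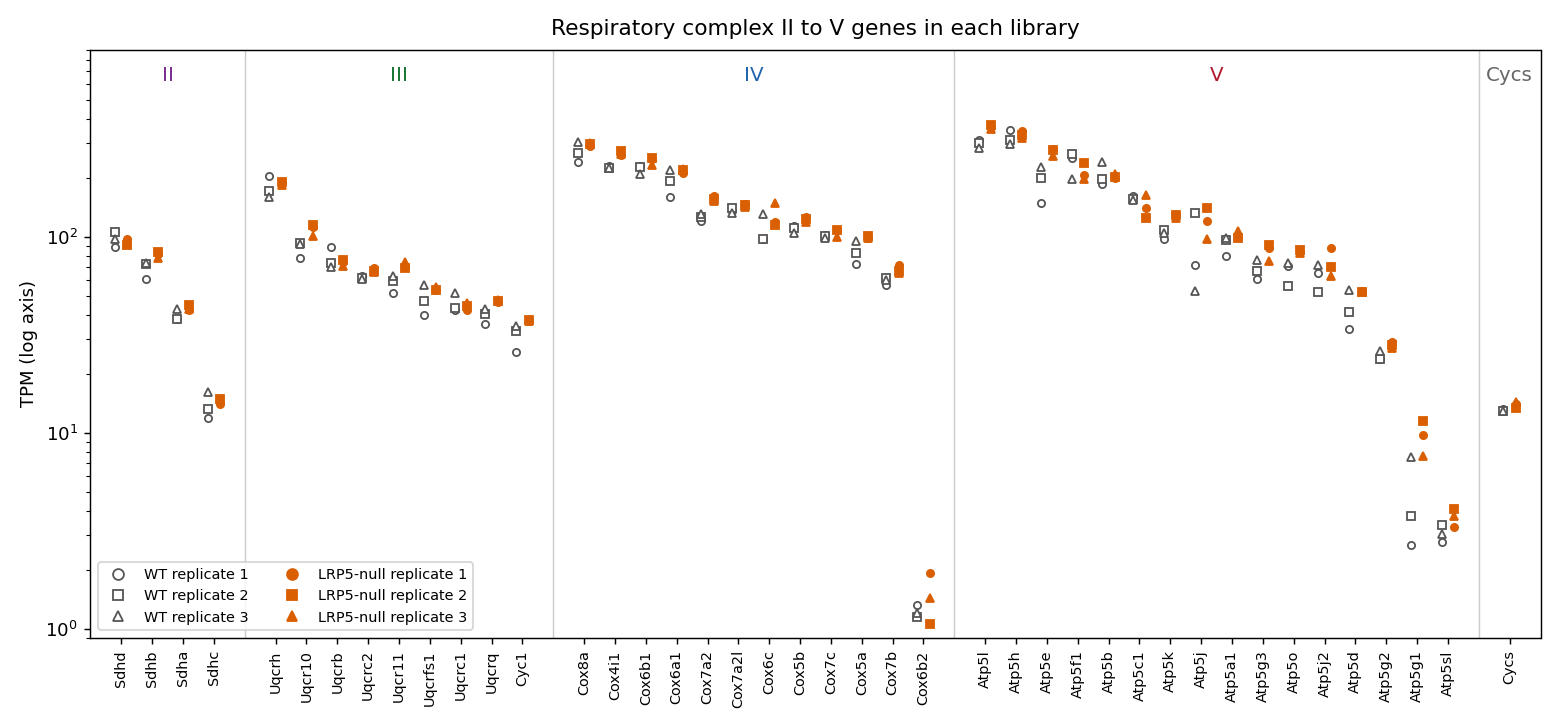
TPM of the 42 genes tested in each library, on a log axis, grouped by complex and ordered by mean level within it. Open grey symbols are WT replicates 1 to 3 and filled orange symbols LRP5-null replicates 1 to 3, and the levels run from 1.35 TPM (mean of Cox6b2) to 330 TPM (mean of Atp5l), with the orange symbols above the grey ones in 20 of the 42 genes.

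Most of these genes were somewhat higher in the libraries labelled LRP5-null, and none of them passed the test on its own. Differences are given on the log2(TPM + 1) scale, where those of weakly expressed genes come out too small. On it, 36 of 42 had a log2 fold change above 0, where 58.8% of all genes tested did. The median was 0.19, against 0.04 for all 9775 genes tested. In 20 of the 42 genes every LRP5-null library lay above every WT library, and in 0 every one lay below. Among all genes tested, 17.4% were higher and 12.3% lower without overlap.

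In limma with Benjamini-Hochberg adjustment over all genes tested, 0 of the 42 had an adjusted p under 0.05, where 0.266% of all genes tested were called higher and 0.266% lower. The smallest adjusted p was 0.0781, of Cox7a2. At an unadjusted p under 0.05 there were 16 higher and 0 lower, against 14.4% and 9.12% of all genes tested. The fit without WT replicate 3 was the exception among the fits that left out a library, with 14 of the 42 called higher and 0 lower, where 12.1% of all genes tested were called higher and 7.57% lower. In a bulk measurement a different share of cells that hold more of these RNAs and a different amount of RNA per cell cannot be told apart.

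**Figure D2:**
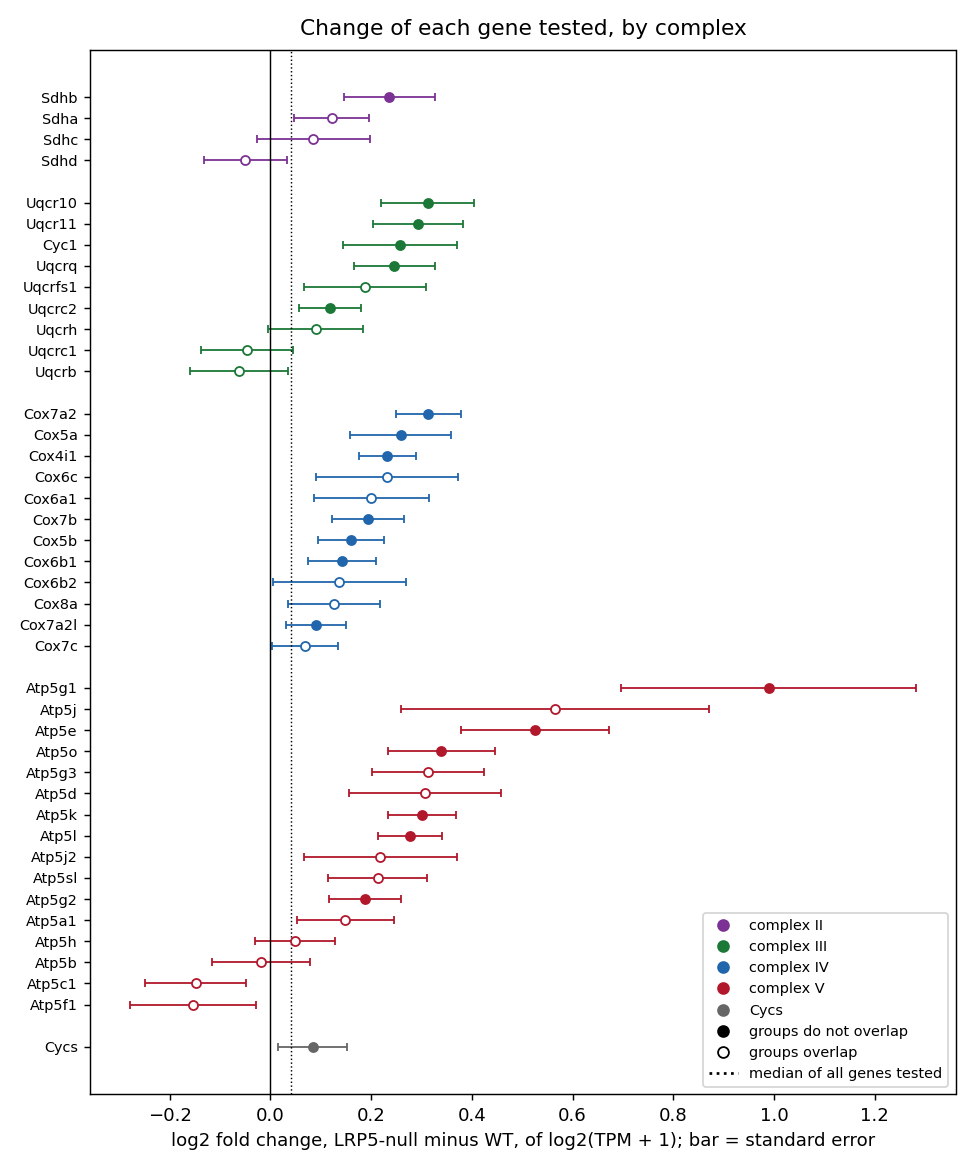
Log2 fold change (LRP5-null minus WT) of each of the 42 genes tested, in complexes II to V and Cycs, with the standard error from limma as the bar. Filled points mark the 20 genes whose groups do not overlap, all of them to the right of 0, and the dotted line is the median of all genes tested, 0.04.

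Complex II had the smallest median of the complexes, 0.10 over its 4 subunits, with 3 above 0 and 1 below. None was called by limma. At an unadjusted p under 0.05, 1 of the 4 (25%) was higher, against 14.4% of all genes tested. The same share was higher without overlap, against 17.4% of all genes tested. Sdhb, the iron-sulfur subunit, was at 60.5, 72.7 and 73.6 TPM in WT replicates 1 to 3 and 81.9, 83.3 and 78.1 TPM in LRP5-null replicates 1 to 3. All 3 LRP5-null libraries were above all WT libraries, a log2 fold change of 0.24 ± 0.0905 (SE, limma adjusted p = 0.181), which was 0.15 without WT replicate 1. Sdha, the flavoprotein that holds the succinate site, was at 38.0, 38.0 and 42.6 TPM in WT replicates 1 to 3 and 42.1, 44.8 and 42.5 TPM in LRP5-null replicates 1 to 3. Its groups overlapped through WT replicate 3, with a log2 fold change of 0.12 ± 0.0749 (SE, limma adjusted p = 0.357).
The membrane anchors Sdhc and Sdhd hold the ubiquinone site. Sdhc was at 11.9, 13.2 and 16.2 TPM in WT replicates 1 to 3 and 13.9, 14.9 and 14.8 TPM in LRP5-null replicates 1 to 3, the LRP5-null values lying within the WT range, with a log2 fold change of 0.08 ± 0.112 (SE, limma adjusted p = 0.672). Sdhd was at 88.3, 106 and 97.5 TPM in WT replicates 1 to 3 and 97.0, 90.1 and 93.9 TPM in LRP5-null replicates 1 to 3, also within the WT range, with a log2 fold change of −0.05 ± 0.0826 (SE, limma adjusted p = 0.743). The median of complex II was −0.02 against WT replicate 3 alone, so that the direction for this complex rests on WT replicates 1 and 2.

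In complex III, 7 of the 9 genes tested had a log2 fold change above 0 and 2 below, with a median of 0.19. In 5 of the 9 the LRP5-null libraries were higher without overlap, against 17.4% of all genes tested. Limma called 0, with 3 higher at an unadjusted p under 0.05, against 14.4% of all genes tested. The most separated were small supernumerary subunits, which surround the core of the enzyme. Uqcr10 was at 78.0, 92.7 and 91.8 TPM in WT replicates 1 to 3 and 111, 114 and 101 TPM in LRP5-null replicates 1 to 3, a ratio of means of 1.24 and a log2 fold change of 0.31 ± 0.0918 (SE, limma adjusted p = 0.132). Uqcr11 was at 51.4, 59.1 and 63.1 TPM in WT replicates 1 to 3 and 69.6, 68.8 and 74.5 TPM in LRP5-null replicates 1 to 3, a log2 fold change of 0.29 ± 0.0899 (SE, limma adjusted p = 0.138). For both, the lowest LRP5-null library stood above the highest WT library. Uqcrq, another small subunit, was at 35.8, 40.1 and 42.7 TPM in WT replicates 1 to 3 and 46.3, 47.1 and 47.5 TPM in LRP5-null replicates 1 to 3, with a log2 fold change of 0.25 ± 0.0808 (SE, limma adjusted p = 0.149).
Cyc1 encodes cytochrome c1, the haem protein that hands electrons to cytochrome c. It was at 25.8, 32.9 and 35.1 TPM in WT replicates 1 to 3 and 37.2, 37.7 and 36.9 TPM in LRP5-null replicates 1 to 3. The 3 LRP5-null libraries lay close together and WT replicate 1 lay lowest, a log2 fold change of 0.26 ± 0.113 (SE, limma adjusted p = 0.220), which was 0.13 without WT replicate 1. The core protein gene Uqcrc2 also separated, from 63.1, 61.8 and 60.8 TPM in WT replicates 1 to 3 to 69.1, 66.9 and 65.8 TPM in LRP5-null replicates 1 to 3, a small difference (log2 fold change 0.12) with a narrow spread.
In the other genes of complex III the groups overlapped. Uqcrh, the hinge protein gene and the most abundant of the complex, was at 203, 172 and 159 TPM in WT replicates 1 to 3 and 191, 191 and 184 TPM in LRP5-null replicates 1 to 3, with WT replicate 1 the highest of all 6 libraries and a log2 fold change of 0.09 ± 0.0950 (SE, limma adjusted p = 0.593). Uqcrb was at 88.6, 73.2 and 70.0 TPM in WT replicates 1 to 3 and 74.0, 75.8 and 70.9 TPM in LRP5-null replicates 1 to 3, again highest in WT replicate 1, with a log2 fold change of −0.06 ± 0.0974 (SE, limma adjusted p = 0.724). The other core protein gene, Uqcrc1, had a log2 fold change of −0.05 ± 0.0916 (SE, limma adjusted p = 0.788). Uqcrfs1, the Rieske iron-sulfur protein gene, had a log2 fold change of 0.19 ± 0.122 (SE, limma adjusted p = 0.380), with WT replicate 3 the highest library and a value of 0.07 without WT replicate 1. The pseudogenes Uqcrh-ps1 and Uqcrh-ps2 were below 0.06 TPM in every library.

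All 12 genes of complex IV that were tested had a log2 fold change above 0, between 0.07 and 0.31 with a median of 0.18. Of the 12, 7 were higher without overlap, against 17.4% of all genes tested. Limma called 0, and 5 were higher at an unadjusted p under 0.05, against 14.4% of all genes tested. Cox7a2, the form of subunit VIIa found in most tissues, had the smallest p of all 42 genes. It was at 120.3, 126 and 131 TPM in WT replicates 1 to 3 and 162, 155 and 152 TPM in LRP5-null replicates 1 to 3. Every LRP5-null library stood well above every WT library, a ratio of means of 1.24 and a log2 fold change of 0.31 ± 0.0647 (SE, limma adjusted p = 0.0781). Cox4i1, the main form of the largest nuclear-encoded subunit, was at 228, 225 and 224 TPM in WT replicates 1 to 3 and 261, 272 and 263 TPM in LRP5-null replicates 1 to 3. The WT libraries were nearly alike and the groups stood apart, with a log2 fold change of 0.23 ± 0.0570 (SE, limma adjusted p = 0.102).
Cox7b, a small subunit encoded on the X chromosome, was at 56.4, 61.1 and 59.8 TPM in WT replicates 1 to 3 and 71.6, 66.4 and 65.4 TPM in LRP5-null replicates 1 to 3, without overlap and with a log2 fold change of 0.19 ± 0.0706 (SE, limma adjusted p = 0.169). Cox5a, on the matrix side of the enzyme, was at 72.3, 82.2 and 94.9 TPM in WT replicates 1 to 3 and 97.8, 100.4 and 98.9 TPM in LRP5-null replicates 1 to 3, with a log2 fold change of 0.26 ± 0.101 (SE, limma adjusted p = 0.186). Its WT libraries were spread widely and the LRP5-null libraries were not, and the log2 fold change was 0.16 without WT replicate 1 and 0.06 against WT replicate 3 alone. Cox8a, the most abundant gene of the complex, was at 241, 268 and 305 TPM in WT replicates 1 to 3 and 291, 295 and 299 TPM in LRP5-null replicates 1 to 3. Its highest library was WT replicate 3, with a log2 fold change of 0.13 ± 0.0908 (SE, limma adjusted p = 0.429), which was 0.04 without WT replicate 1. Cox7c had the smallest difference, at 102, 100.1 and 97.8 TPM in WT replicates 1 to 3 and 108, 107 and 99.5 TPM in LRP5-null replicates 1 to 3, with a log2 fold change of 0.07 ± 0.0650 (SE, limma adjusted p = 0.548).
The other subunits tested, Cox5b, Cox6a1, Cox6b1 and Cox6c, had log2 fold changes of 0.16, 0.20, 0.14 and 0.23. Groups did not overlap for Cox5b and Cox6b1 and overlapped for Cox6a1 and Cox6c. Cox7a2l, which encodes a factor that joins respiratory complexes into supercomplexes and is no subunit of the isolated enzyme, was at 135, 139 and 132 TPM in WT replicates 1 to 3 and 146, 145 and 141 TPM in LRP5-null replicates 1 to 3, a log2 fold change of 0.09 ± 0.0600 (SE, limma adjusted p = 0.387).

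Several subunits of complex IV come in forms for particular tissues, and the neutrophil libraries held only the common forms at substantial levels. Cox4i1 was at a mean of 246 TPM over all libraries, while Cox4i2, a form known from lung and from low oxygen, did not exceed 0.0442 TPM in any library. Cox6a1 was at a mean of 203 TPM and its heart and muscle form Cox6a2 at 0.119 to 0.297 TPM. Cox7a2 was at a mean of 141 TPM and the heart and muscle form Cox7a1 at 0.144 to 0.403 TPM. Cox6b1 was at a mean of 233 TPM, whereas Cox6b2, known as the form of testis, was at 1.32, 1.15 and 1.21 TPM in WT replicates 1 to 3 and 1.91, 1.05 and 1.44 TPM in LRP5-null replicates 1 to 3, with overlapping groups. Cox8a was at a mean of 283 TPM, and Cox8b, Cox8c and Cox7b2 were listed at 0 in every library.

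Complex V held the largest differences and the widest spread among its genes, with 13 of the 16 tested above 0 and 3 below and a median of 0.25. Limma called 0, with 7 higher at an unadjusted p under 0.05, against 14.4% of all genes tested. In 6 of the 16 the LRP5-null libraries were higher without overlap, against 17.4% of all genes tested. In the catalytic head and central stalk, Atp5e, the epsilon subunit, was at 148, 199 and 228 TPM in WT replicates 1 to 3 and 279, 277 and 259 TPM in LRP5-null replicates 1 to 3. The LRP5-null libraries were alike and above all WT libraries, which themselves were far apart, with a ratio of means of 1.42 and a log2 fold change of 0.53 ± 0.147 (SE, limma adjusted p = 0.124). Against WT replicate 3 alone its log2 fold change was 0.25. Atp5a1 (alpha) and Atp5b (beta), which form the catalytic sites, had log2 fold changes of 0.15 and −0.02, with overlapping groups for both. Atp5c1 (gamma) and Atp5d (delta) had log2 fold changes of −0.15 and 0.31, with overlap.
Of the small membrane subunits, which hold ATP synthase dimers together, Atp5k (subunit e) was at 97.1, 109 and 104 TPM in WT replicates 1 to 3 and 129, 128 and 125 TPM in LRP5-null replicates 1 to 3. The groups stood apart, with a log2 fold change of 0.30 ± 0.0674 (SE, limma adjusted p = 0.0892). Atp5l (subunit g), the most abundant of all 42 genes, was at 312, 299 and 283 TPM in WT replicates 1 to 3 and 361, 371 and 352 TPM in LRP5-null replicates 1 to 3. All LRP5-null libraries were again above all WT libraries, with a log2 fold change of 0.28 ± 0.0637 (SE, limma adjusted p = 0.0938). Atp5j2 (subunit f) had a log2 fold change of 0.22 and overlapping groups.
In the peripheral stalk, which keeps the head from turning with the rotor, the genes differed in direction. Atp5o, which joins the stalk to the head, was at 70.8, 55.9 and 73.1 TPM in WT replicates 1 to 3 and 83.7, 85.8 and 82.3 TPM in LRP5-null replicates 1 to 3, without overlap and with a log2 fold change of 0.34 ± 0.106 (SE, limma adjusted p = 0.140), which was 0.22 without WT replicate 2. Its exons overlap those of Donson on the same strand in the annotation of mm9, so some reads could belong to either. Atp5f1 (subunit b) was at 253, 265 and 197 TPM in WT replicates 1 to 3 and 206, 236 and 196 TPM in LRP5-null replicates 1 to 3, the most negative of all, with a log2 fold change of −0.15 ± 0.125 (SE, limma adjusted p = 0.484) and overlapping groups, and was −0.07 without WT replicate 2 and −0.28 without WT replicate 3. Atp5h (subunit d) had a log2 fold change of 0.05. Of these stalk genes, Atp5j (coupling factor 6) varied most among libraries. It was at 71.4, 131 and 52.9 TPM in WT replicates 1 to 3 and 119.7, 140.3 and 97.1 TPM in LRP5-null replicates 1 to 3. Its log2 fold change was 0.56 with a standard error of 0.306, and 0.28 without WT replicate 3. Exons of Gabpa overlap Atp5j on the opposite strand, and whether the authors counted by strand is not given in the sources used here. The same holds for Atp5d, Atp5f1, Atp5o, Cox5a, Cox6c, Uqcrb and Uqcrc2, which overlap exons of another gene on the opposite strand. The deposited read summary lists 99.37% to 99.51% of reads per library in the correct strand. The related factor Atp5sl was at 3.06 ± 0.305 TPM in WT (SD, n = 3) and 3.71 ± 0.395 TPM in LRP5-null libraries (SD, n = 3), with overlap, and Atp5s and the 4 complex V pseudogenes had means below 1 TPM.

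The ring of c subunits, which turns as protons pass, is encoded by 3 genes that are known to give the same mature protein from different precursors. Their levels were far apart. Atp5g1 was at 2.67, 3.76 and 7.47 TPM in WT replicates 1 to 3 and 9.74, 11.5 and 7.61 TPM in LRP5-null replicates 1 to 3. The LRP5-null libraries were all above WT replicate 3, which stood above the other WT libraries, and LRP5-null replicate 3 exceeded it only slightly. Its log2 fold change of 0.99, the largest of the 42 (standard error 0.293, limma adjusted p = 0.133), was 0.31 against WT replicate 3 alone and 1.33 without WT replicate 3.
Atp5g2 was at 23.9, 23.6 and 26.0 TPM in WT replicates 1 to 3 and 28.9, 28.0 and 27.1 TPM in LRP5-null replicates 1 to 3, without overlap and with a log2 fold change of 0.19 ± 0.0717 (SE, limma adjusted p = 0.181). Atp5g3 was at 60.6, 66.8 and 76.2 TPM in WT replicates 1 to 3 and 87.8, 90.9 and 74.6 TPM in LRP5-null replicates 1 to 3. Here LRP5-null replicate 3 lay within the WT range, with a log2 fold change of 0.31 ± 0.110 (SE, limma adjusted p = 0.162). The 3 genes summed to 87.1, 94.2 and 109.6 TPM in WT replicates 1 to 3 and to 126, 130.4 and 109.4 TPM in LRP5-null replicates 1 to 3, so the sums overlapped. Atp5g3 gave 68.2% to 70.9% of this sum in every library, while the share of Atp5g1 ran from 3.06% to 6.82% in WT and from 6.96% to 8.83% in LRP5-null libraries.

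**Figure D3:**
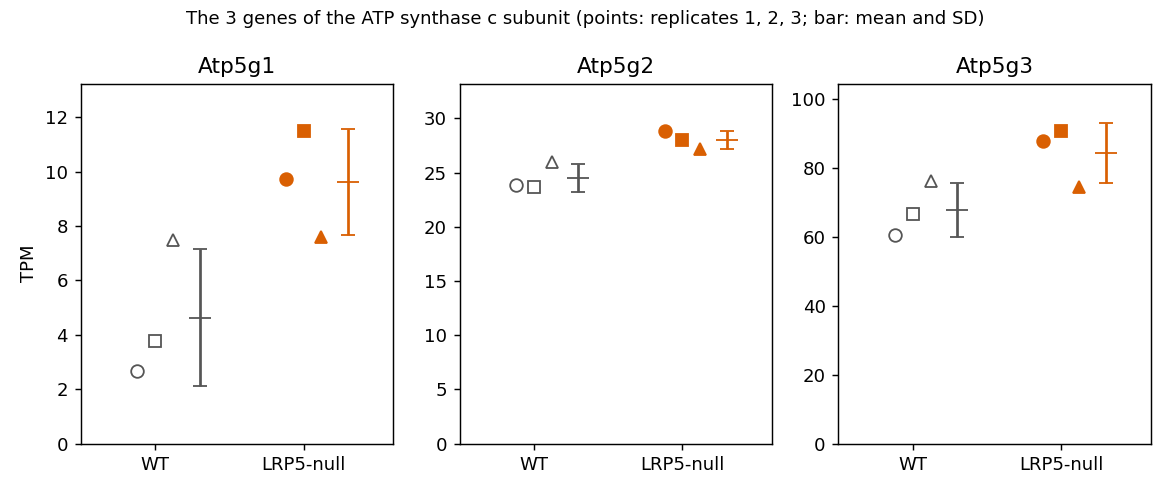
TPM of Atp5g1, Atp5g2 and Atp5g3, which encode the c subunit of ATP synthase, with an axis from 0 for each gene. Circles, squares and triangles are replicates 1, 2 and 3 of WT (open, grey) and LRP5-null (filled, orange), and the bars beside them give the mean and SD of 3 libraries. For Atp5g1, WT replicate 3 at 7.47 TPM is next to LRP5-null replicate 3 at 7.61 TPM.

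Cycs, which encodes cytochrome c itself, was at 13.2, 12.9 and 12.9 TPM in WT replicates 1 to 3 and 14.0, 13.3 and 14.3 TPM in LRP5-null replicates 1 to 3. Every LRP5-null library was above every WT library, by a small amount, with a log2 fold change of 0.08 ± 0.0689 (SE, limma adjusted p = 0.489).

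The starts of these genes were also read as sequence. RefSeq promoters (GRCm38.p6, 250 bases before to 50 after each start) were matched for 32 of the 40 subunit and Cycs genes tested, and were searched on both strands for 3 motifs linked to respiratory genes. These were the NRF1 motif (GCGCA, any base, then GCGC), the ETS motif CCGGAAG bound by GABP, and the YY1 motif AAGATGGCG. The NRF1 motif was found for 10 of 32 genes (31.2%), against 5.19% of all genes with a promoter in the table and 12.6% of those tested here. For the ETS motif it was 12 of 32 (37.5%), against 9.93% and 23.4%, and for the YY1 motif 2 of 32 (6.25%), against 1.64% and 4.27%. At least 1 of the motifs stood in 19 of 32 (59.4%), against 15.1% of all genes and 35.7% of those tested, and no matches overlapped each other. A match is a run of letters and no evidence of binding.
The 250 bases upstream of the start are shown for the 4 matched genes with the smallest p in limma, with motif letters in capitals. They are Cox7a2 (chr9:79759854-79760103, minus strand), Atp5k (chr5:108434400-108434649, minus strand), Atp5l (chr9:44920743-44920992, minus strand) and Atp5e (chr2:174464102-174464351, minus strand).
Cox7a2: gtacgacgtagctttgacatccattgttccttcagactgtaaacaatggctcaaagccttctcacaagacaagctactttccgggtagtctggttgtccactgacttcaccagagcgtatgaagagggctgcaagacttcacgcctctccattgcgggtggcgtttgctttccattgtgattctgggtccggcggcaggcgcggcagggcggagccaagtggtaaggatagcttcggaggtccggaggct
Atp5k: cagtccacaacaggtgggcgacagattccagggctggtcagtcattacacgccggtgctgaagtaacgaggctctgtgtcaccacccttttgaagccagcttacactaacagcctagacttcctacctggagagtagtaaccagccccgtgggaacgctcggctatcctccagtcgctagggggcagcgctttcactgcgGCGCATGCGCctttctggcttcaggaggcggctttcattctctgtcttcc
Atp5l: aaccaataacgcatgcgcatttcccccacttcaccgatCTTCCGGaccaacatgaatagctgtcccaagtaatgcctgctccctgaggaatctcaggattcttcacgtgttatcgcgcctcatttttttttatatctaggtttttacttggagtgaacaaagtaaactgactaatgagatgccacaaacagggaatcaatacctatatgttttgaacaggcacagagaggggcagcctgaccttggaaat
Atp5e: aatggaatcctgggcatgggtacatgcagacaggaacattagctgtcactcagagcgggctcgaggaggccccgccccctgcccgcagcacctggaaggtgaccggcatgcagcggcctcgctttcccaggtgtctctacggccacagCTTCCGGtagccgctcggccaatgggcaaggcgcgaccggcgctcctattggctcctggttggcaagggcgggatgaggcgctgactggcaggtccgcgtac
The Cox7a2 window, of the gene with the smallest p, holds none of the 3 motifs. That of Atp5k holds an NRF1 match that ends 40 bases before the end of the window, and those of Atp5l and Atp5e hold ETS matches on the opposite strand that end 205 and 95 bases before it. The counts cover the whole window up to 50 bases after the start, in which Atp5k has an ETS match and Atp5l another ETS match after the start.

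Other genes of the same pathway were taken from lists of assembly factors, remaining subunits, mitochondrially encoded subunits and transcriptional regulators. Of 36 assembly factors, which build the complexes without being part of them, 35 were in the table and 28 were tested, 18 had a log2 fold change above 0, and the median was 0.08. Groups did not overlap in 5 that were higher and 4 that were lower. These are 17.9% and 14.3% of the 28, near the 17.4% and 12.3% of all genes tested. Limma called 0, with 5 higher and 2 lower at an unadjusted p under 0.05, against 14.4% and 9.12% of all genes tested. The smallest p belonged to Bcs1l, which inserts the Rieske protein into complex III, with a log2 fold change of −0.26 ± 0.0852 (SE, limma adjusted p = 0.153), and to Sdhaf1, which matures the iron-sulfur subunit of complex II, with a log2 fold change of 0.23 ± 0.0893 (SE, limma adjusted p = 0.180). These have opposite directions.
Among 7 tested subunits and regulators whose symbols the naming rule leaves out, limma called 0. Where 14.4% of all genes tested were higher at an unadjusted p under 0.05, 1 of the 7 was. This was Ndufa4, now counted as a subunit of complex IV, at 38.6, 38.3 and 40.3 TPM in WT replicates 1 to 3 and 49.0, 50.5 and 45.5 TPM in LRP5-null replicates 1 to 3. The groups stood apart, with a log2 fold change of 0.30 ± 0.0702 (SE, limma adjusted p = 0.0975). Next was Higd2a, a factor of complex IV assembly, with a log2 fold change of 0.10 ± 0.0716 (SE, limma adjusted p = 0.419). The median of the 7 was 0.05.
The mitochondrial genome encodes cytochrome b of complex III, the catalytic core of complex IV and part of the proton channel of complex V. Of its 6 such genes, 2 passed the filter. mt-Co1 was at 1157, 867 and 603 TPM in WT replicates 1 to 3 and 578, 612 and 587 TPM in LRP5-null replicates 1 to 3, the LRP5-null values being near that of WT replicate 3, with a log2 fold change of −0.51 ± 0.206 (SE, limma adjusted p = 0.194). mt-Cytb was at 430.1, 298 and 232 TPM in WT replicates 1 to 3 and 238, 263 and 252 TPM in LRP5-null replicates 1 to 3, with a log2 fold change of −0.31 ± 0.199 (SE, limma adjusted p = 0.382). For these 2 genes the difference thus had the opposite sign to that of most nuclear genes, and the groups overlapped for both. Limma called 0, with 1 lower at an unadjusted p under 0.05 (9.12% of all genes tested). The other 4, mt-Co2, mt-Co3, mt-Atp6 and mt-Atp8, had means below 1 TPM in this table. The cause of this gap within 1 genome was not tested, and the 2 genes need not stand for all 6.
Of 14 transcriptional regulators 9 were tested, with 4 above 0 and 5 below, a median of −0.05 and 0 called by limma. At an unadjusted p under 0.05 there were 0 higher and 1 lower, against 14.4% and 9.12% of all genes tested. The smallest p were those of Sp1, a log2 fold change of −0.27 ± 0.0790 (SE, limma adjusted p = 0.132), without overlap, and of Gabpa, a log2 fold change of −0.20 ± 0.0926 (SE, limma adjusted p = 0.243), with overlap. Nrf1, which encodes the factor that binds the NRF1 motif, was at 18.4, 16.7 and 20.3 TPM in WT replicates 1 to 3 and 22.0, 20.7 and 20.4 TPM in LRP5-null replicates 1 to 3, without overlap and with a log2 fold change of 0.18 ± 0.0877 (SE, limma adjusted p = 0.259). Complex I, the nearest other complex, was taken by symbol, so that Ndufa4, given above as a subunit of complex IV, is counted again here. It had 34 of 36 genes tested above 0 and a median of 0.21, with 0 called by limma. Of the 36, 24 were higher without overlap and 17 higher at an unadjusted p under 0.05, against 17.4% and 14.4% of all genes tested.

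The summed TPM of the 55 genes was 4316, 4505 and 4549 TPM in WT replicates 1 to 3 and 5019, 5047 and 4903 TPM in LRP5-null replicates 1 to 3, a ratio of means of 1.12. By complex, the ratio of summed TPM was 1.06 for II, 1.10 for III, 1.13 for IV and 1.12 for V, and the sums of complexes III, IV and V did not overlap between groups. WT replicate 1 was the lowest library for 23 of the 42 genes, WT replicate 3 for 12 and WT replicate 2 for 4. WT replicate 1 also stood apart in coverage along transcripts, with a 5′ bias ratio of 0.571 against 0.502 to 0.521 and a 3′ bias ratio of 0.194 against 0.231 to 0.257 in the other libraries, and the part of this in the result was not tested. The highest library was an LRP5-null one for 31 of the 42, with 11, 13 and 7 in replicates 1 to 3. Counts of the lowest and highest library were not made over all genes tested, so they show no trait particular to the 42 genes. The spread between replicates was wider in WT, with a median coefficient of variation of 10.4% against 3.55%, as it was over all genes tested (11.04% against 5.89%).

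**Figure D4:**
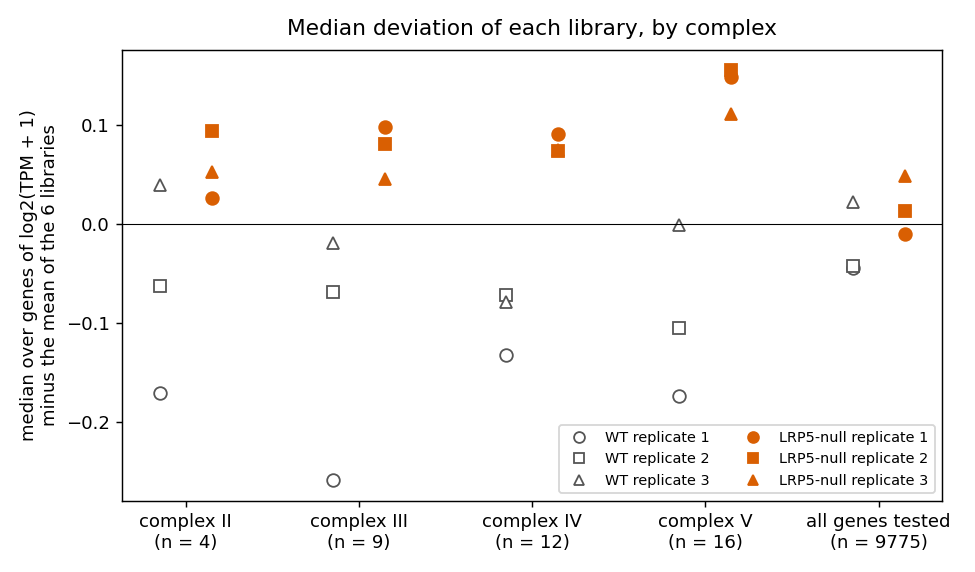
Median over the genes of each complex, and over all 9775 genes tested, of log2(TPM + 1) minus the mean of the 6 libraries, for each library. WT replicates are open and grey, LRP5-null replicates filled and orange. In complex IV the WT libraries lie between −0.13 and −0.07 and the LRP5-null libraries between 0.07 and 0.09, while in complex II WT replicate 3, at 0.04, lies among the LRP5-null libraries.

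The single WT libraries differed in how far they stood from the LRP5-null ones. All 3 LRP5-null libraries were above WT replicate 1 for 34 of the 42 genes (47.7% of all genes tested), above WT replicate 2 for 33 (46.3%) and above WT replicate 3 for 26 (31.4%). Below WT replicate 3 were all LRP5-null libraries for 7 of the 42 genes, where 33.8% of all genes tested were. Against WT replicate 3 alone, the medians of complexes III, IV and V were 0.13, 0.14 and 0.15, where that of all genes tested was −0.0065. Its ribosomal RNA share of reads, 3.30%, is near that of the LRP5-null libraries, and with this share as a covariate the medians of complexes II to V were −0.0040, 0.14, 0.14 and 0.17.
GC content also moved with the libraries. Across the 8769 genes with a value, the deviation of a library from the mean had a Spearman correlation with GC content of −0.61 and −0.43 in WT replicates 1 and 2 and of 0.33 to 0.44 in the others, as a description over genes that are not independent. With transcript length it lay between −0.185 and 0.102. The 42 genes had a median GC content of 50.7%, against 49.98% for all genes tested, and a median transcript length of 824 bases against 2926 bases. With both trends removed from every library, 32 of the 42 had a log2 fold change above 0, and the medians of complexes II to V were 0.10, 0.10, 0.05 and 0.14, against −0.00011 for all genes. Among genes whose groups stood apart, the log2 fold change was then 0.07 for Cox4i1, 0.08 for Uqcr11, 0.13 for Uqcr10, 0.13 for Atp5k, 0.10 for Cyc1 and 0.11 for Sdhb. Each of these was lower than without this step by a factor of over 2. Smaller reductions left it at 0.35 for Atp5e, 0.16 for Cox5a, 0.20 for Uqcrq and 0.26 for Cox7a2. For Atp5g1 it stayed at 0.99, and for Cox7b (0.30) and Cycs (0.27) it was higher than without this step. The transcript length used for Atp5g1 was 4715 bases, the longest in the annotation, against 647 bases for Atp5g2 and 723 bases for Atp5g3. Whether that transcript is the one measured was not tested. Atp5l was the 1 of the 42 called, at 0.20 (limma adjusted p = 0.0384), where 1.79% of all genes were called higher and 3.11% lower.

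**Figure D5:**
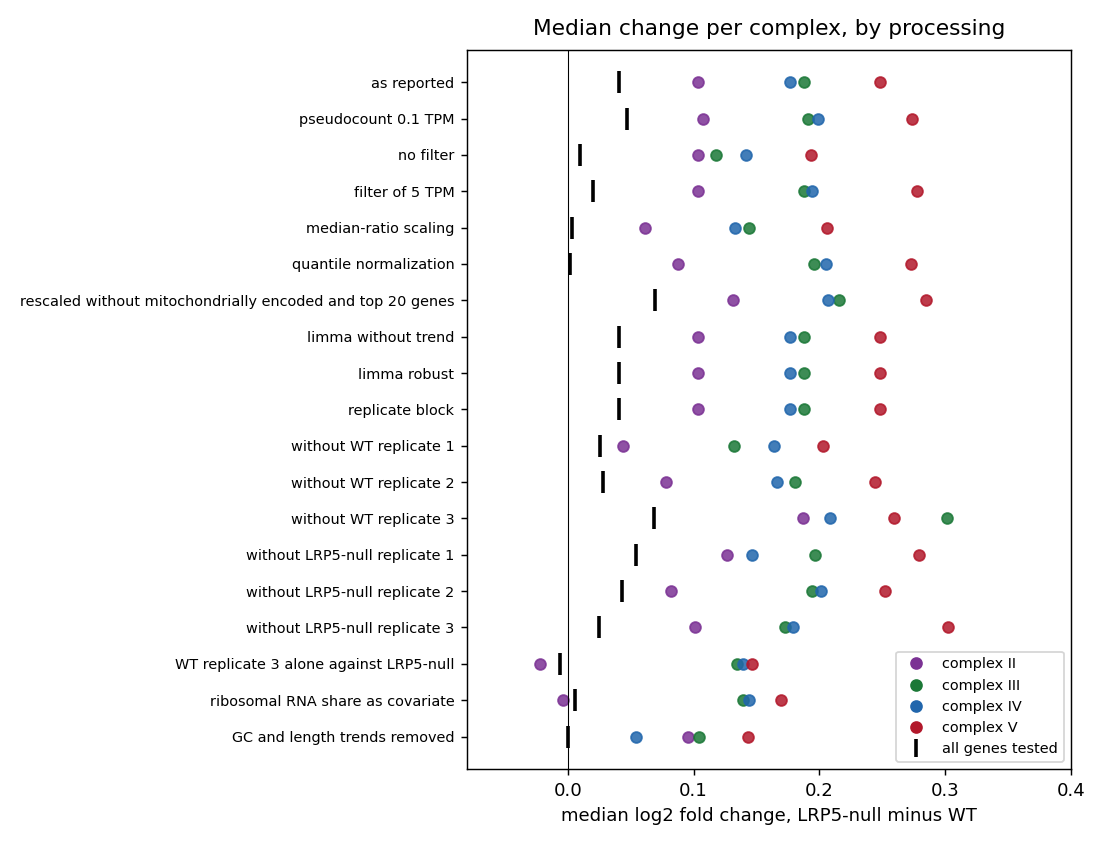
Median log2 fold change (LRP5-null minus WT) over the genes tested of complexes II, III, IV and V (colored points) and over all genes tested (black bars), as reported and under 18 other ways of processing. Complexes III, IV and V stay above 0 in all of them, while complex II is at −0.02 against WT replicate 3 alone and at −0.0040 with the ribosomal RNA share as a covariate.

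Marker genes of cell stages and of other cells were read beside these values. The 12 genes of immature neutrophils summed to 32917 to 33714 TPM in the LRP5-null libraries and to 26563 to 30196 TPM in WT. Of the 12, 7 were higher without overlap, against 17.4% of all genes tested. The 12 genes of proliferating cells summed to 277 to 286 TPM against 244 to 253 TPM in WT, with 8 of 12 higher without overlap (17.4% of all genes tested). For the 12 genes of mature neutrophils the sums overlapped, at 34379 to 35311 TPM in LRP5-null and 34850 to 38782 TPM in WT libraries. Of these, 6 of 12 were lower without overlap, against 12.3% of all genes tested. The part of such stages in the difference of the respiratory genes was not tested.
Of other lineages, the 10 erythroid genes in the table summed to 44.0 to 55.4 TPM in LRP5-null and 49.1 to 58.2 TPM in WT libraries, with Alas2 and Slc4a1 below 1 TPM throughout. The sums of 7 B cell genes (12.5 to 13.3 against 12.7 to 14.4 TPM) and of 8 monocyte and macrophage genes (636 to 689 against 565 to 725 TPM) overlapped. Those of 8 T and NK cell genes (15.6 to 17.3 against 11.3 to 13.3 TPM), 4 eosinophil genes (11.3 to 12.1 against 8.31 to 10.1 TPM) and 5 megakaryocyte genes (5.75 to 6.65 against 3.74 to 5.38 TPM) did not. Of the 2 eosinophil genes tested, 1 was called higher, where 0.266% of all genes tested were. It was Prg2, which encodes a granule protein of eosinophils, higher by 0.91 on the log2 scale (limma, adjusted p = 0.0341). Cd3e, Cd3g, Cd4, Cd8a, Epx and Itga2b were below 1 TPM in every library, and among all marker genes found, 0 were at 0 in every library. Reads in introns made up 10.6% to 11.2% in the LRP5-null and 7.78% to 9.0% in the WT libraries, and the part of this in the result was not tested.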

How the data were processed

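The libraries were prepared from bone marrow neutrophils, by a Percoll gradient and an mRNA kit per the labels, and by a sort on CD11b and Ly6G and a stranded total RNA kit with single-end reads in the methods, while the deposited read summary lists paired reads of 94 bases. The authors aligned the reads to mm9 and name DESeq2 for quantification. They deposited TPM, and the tool that gave TPM is not given in the sources used here. The deposited read summary holds counts of reads, shares in percent, a ratio of coverage at transcript ends, a coverage variation score and insert sizes.

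Genes averaging 1 TPM or more were tested with limma 3.58.1 under R 4.3.3, on log2(TPM + 1) and with its trend option, without covariates. TPM are not counts, so no count model was used, and p-values were adjusted by Benjamini-Hochberg over 9775 genes. The fit was tested on simulated data. Genes were named by rule, with their 6 library values for members: all of complex II and Cycs, and in each other complex the 4 genes of smallest p, the most abundant and the most negative, beside the tissue forms of complex IV subunits and (by fold change, with or without library values) the 2 genes of smallest p of each pathway list. Uqcrc2, Cox7a2l, Atp5o, Atp5j, Atp5g2, Atp5g3 and Nrf1, also given in each library, fall outside this rule and were chosen after their values were seen. The gene lists and members were chosen with earlier results of these data known. Length and GC content were read from GENCODE M1 (build NCBIM37, longest coding transcript) for 89.7% of genes tested, and their trends were fitted with splines of 4 degrees of freedom. Means are given with the SD of 3 libraries. An exact permutation test of 3 libraries against 3 cannot give a p below 0.1, so none is given for single genes.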

Additional observations from a re-analysis of the deposited data

How the results depend on the processing

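All results rest on 3 libraries a group and on labels that the gene-level TPM of Lrp5 does not bear out while that of Lyz2 was lower where Cre is labelled, and TPM gives no depth per gene. The number of the 55 genes called by limma was 0 as reported, 14 without WT replicate 3 and 1 after removal of the GC and length trends, and 0 in the other fits. With the replicate number as a block it was 0, and 4 of all 9775 genes tested were called against 52. The numbers were not taken as pairs, since the labels do not say which animals gave which library. Same-numbered libraries had correlations of 0.229, −0.0075 and 0.131 in their deviations from the group means. Those of differently numbered libraries ran from −0.213 to 0.0834. Replicates 1 and 3 thus lay above all of these and replicate 2 did not, which does not decide whether the numbers are pairs. Over the fits that left out a library the number of genes called ran from 0 to 14. In those fits the median log2 fold change ran from 0.044 to 0.19 for complex II, from 0.13 to 0.30 for complex III, from 0.15 to 0.21 for complex IV and from 0.20 to 0.30 for complex V. The median of complex IV was 0.14 without a filter on low values, 0.13 with median-ratio scaling, 0.21 with quantile normalization and 0.21 after rescaling to a total without the 20 highest genes and those of the mitochondrial genome. Against WT replicate 3 alone, complexes II, IV and V had −0.022, 0.14 and 0.15, and with the ribosomal RNA share as a covariate −0.0040, 0.14 and 0.17. Without the GC and length trends, complexes IV and V had 0.054 and 0.14.

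Of 22 named genes, some changed sign in 13 of 396 combinations of gene and setting. Leaving out a library took Sdhc from −0.0077 to 0.20, Sdhd from −0.12 to 0.013 and Uqcrb from −0.13 to 0.038. Against WT replicate 3 alone, Atp5f1, Cox8a, Sdhc and Uqcrb had 0.11, −0.049, −0.14 and 0.069. With the ribosomal covariate Atp5f1, Sdhc and Uqcrb had 0.019, −0.076 and 0.032, and without the GC and length trends Cox8a, Uqcrb and Uqcrh had −0.074, 0.0048 and −0.0063. The cause was not tested.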
